A study of Mus musculus with 5 samples.

Results

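Villin (Vil1) and 9 other genes of the apical microvillus were described in liver tumours of wild-type mice and of mice lacking the long non-coding RNA lnc-CTHCC. The 10 genes are the actin bundlers Vil1 and Espn, the ERM linkers Ezr, Rdx and Msn, the PDZ scaffolds Slc9a3r1 and Pdzk1, the brush border myosin Myo1a and the apical peptidases Anpep and Mme. They were taken by gene symbol from a table of 22287 genes, in which all 10 were found. The set was built around Vil1, which was picked because it is nearly absent in the knockout tumours, so its own values are given as a description with no test. The other 9 genes were picked by their role. Tumours came from C57BL/6 mice of both genotypes given DEN, a liver carcinogen, together with CCl4, a liver toxicant, for 5 months. The wild-type (WT) group has 2 libraries and the lnc-CTHCC-/- (KO) group has 3. The labels give neither the sex nor the age of the mice, and they do not say how the deletion was made or whether the libraries of a group are separate mice. P-values may therefore measure technical spread alone.

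Microvilli are finger-like protrusions held up by a bundle of parallel actin filaments. Villin, espin and plastin crosslink that bundle, the ERM proteins ezrin, radixin and moesin tie it to the membrane, and PDZ scaffolds dock transporters and channels onto the ERM proteins. In the liver, the surfaces that carry microvilli include the bile canaliculus between hepatocytes and the lumen of the bile ducts. Radixin is the main ERM protein of hepatocytes, and moesin is typical of leukocytes and endothelium. In the intestine and the kidney tubule the same machinery forms the brush border.

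Levels are FPKM, a fragment count divided by gene length and library size, so that genes can be set side by side. The FPKM of a library summed to between 526229 and 552619. The depth is unknown. Over 10132 genes the WT pair had the lowest correlation of any pair of libraries (r = 0.965, across genes), and KO 1 with KO 2 had the highest (r = 0.984). Values of both WT libraries are therefore given separately for the genes described. Genotypes are those of the labels, since the lnc-CTHCC transcript was not analysed here. A difference is the KO mean less the WT mean of log2(FPKM + 1), a scale that understates fold changes at low levels. Differences were tested with limma over all genes with a mean of at least 1 FPKM, and a gene passed when its Benjamini-Hochberg adjusted p was under 0.05. No exact permutation test was used, since with these group sizes its smallest two-sided p is 0.1.

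Vil1 lies on chromosome 1, from 74409376 to 74435559 on the plus strand (mm10, GENCODE vM21, gene ENSMUSG00000026175). The sequence just upstream of its start is shown because Vil1 is the gene around which the set was built. It runs from chr1:74409134-74409375 on the plus strand (RefSeq, GRCm38.p6, the assembly of mm10), 242 bases of which 62.8% are G or C, and the capitals mark the single match to the motifs named next.
Vil1 promoter: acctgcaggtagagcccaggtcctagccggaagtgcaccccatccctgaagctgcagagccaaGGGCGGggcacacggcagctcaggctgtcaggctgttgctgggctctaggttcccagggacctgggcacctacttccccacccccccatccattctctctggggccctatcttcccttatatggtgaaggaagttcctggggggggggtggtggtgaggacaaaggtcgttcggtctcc

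The motifs were read on both strands in the 250 bases before each of 32851 RefSeq gene starts, and no motif overlapped another in the Vil1 window. GGGCGG, the core of SP1 sites, begins 179 bases before the Vil1 start and is present in 32.7% of all promoters. Among the 16 annotated starts of the 10 genes, several of which belong to the same gene, it is present in 11. TTTATNG (CDX, 9.81% of all promoters), ATTGAT and ATCGAT (ONECUT cores, 6.72% and 0.728%), CAAAGTCCA (HNF4, 0.384%) and TATAAA (12.4%) were not found as letters in the Vil1 window. Of the 16 starts, 1 at Espn holds TTTATNG.

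Several of these genes belong to families, so the longest stretches that relatives share are shown, since reads within them cannot be assigned to 1 gene. The ezrin and moesin coding sequences were 73.1% identical over 1731 aligned bases, and their longest exact shared run was 32 bases, beginning at coding base 901 in both. Vil1 and Avil, encoding advillin, were 64.8% identical over 2454 aligned bases, with a longest shared run of 32 bases as well, at coding base 2107 of Vil1. Both runs are printed from the GENCODE vM21 transcripts.
Ezr and Msn shared run: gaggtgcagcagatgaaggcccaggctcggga
Vil1 and Avil shared run: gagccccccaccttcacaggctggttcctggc
Rdx shared at most 15 bases in a row with Ezr and 18 with Msn, and Vil1 at most 14 with Vill, which encodes a villin-like protein. The labels do not give the read length.

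In order of mean level over the 5 libraries, the genes ran from Slc9a3r1 (96.5 FPKM) through Anpep (64.0), Rdx (38.03), Pdzk1 (17.6), Msn (13.3), Mme (9.54), Ezr (6.92), Vil1 (1.45) and Espn (0.534) to Myo1a (0.002). The ranges of Slc9a3r1, Anpep and Rdx over the libraries did not overlap with that of the next gene in this order, nor did that of Espn with Myo1a. From Pdzk1 down to Ezr each gene's range overlapped with that of the next. Within single libraries this order turned only in WT 2 for Pdzk1 and Msn and for Mme and Ezr, and only in KO 2 for Msn and Mme. The place of Vil1 depended on the genotype: it lay below Ezr in every library, above Espn in both WT libraries and below Espn in all 3 KO libraries. Of the 10 genes, 8 passed the filter of a mean of 1 FPKM. Vil1 passed it only through its WT values, and Espn and Myo1a did not pass.

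**Figure D1:**
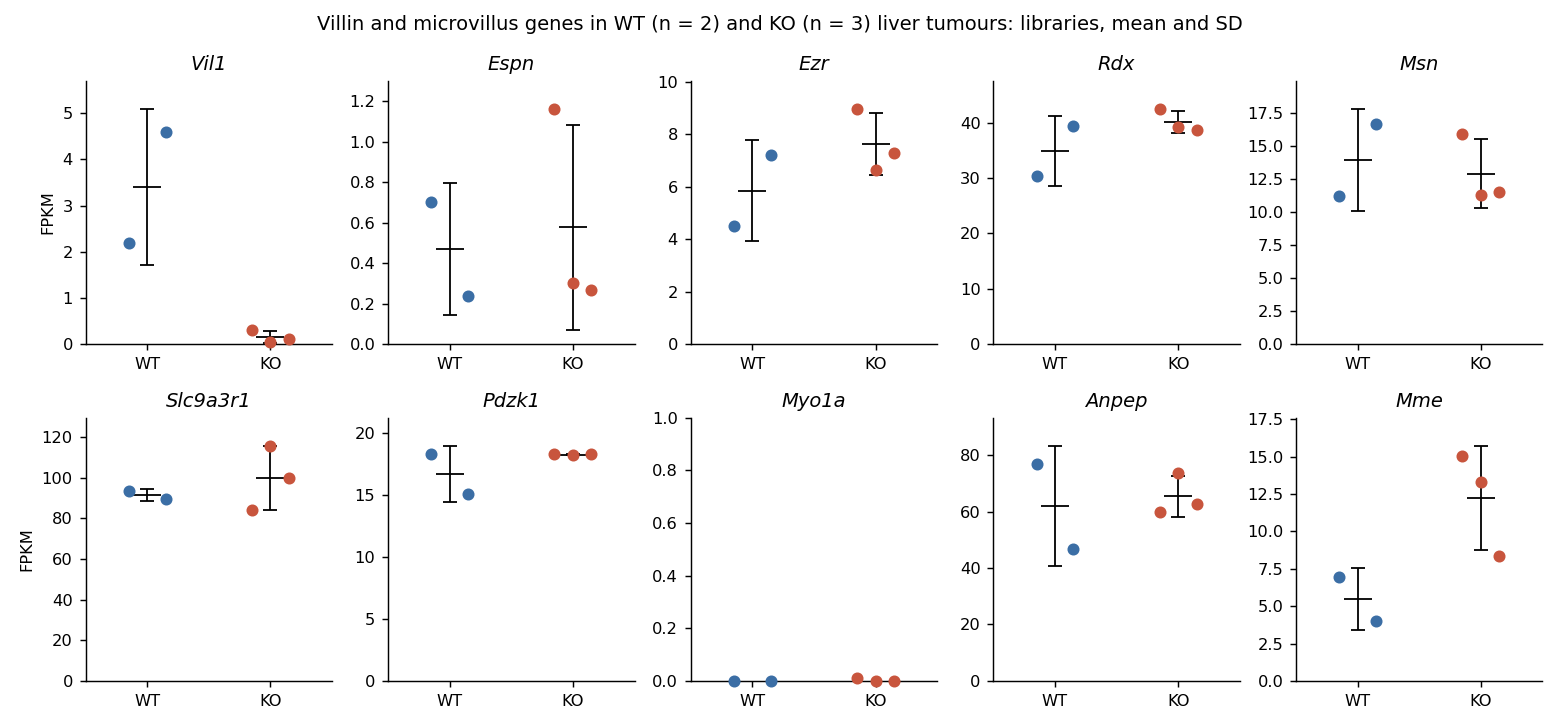
FPKM of the 10 genes (linear axes from 0) in the 2 WT and 3 KO libraries; points are libraries, and bars are the mean and SD, left out for Myo1a. Vil1 lies at 2.2 and 4.59 in WT but no higher than 0.3 in KO, Mme lies higher in all KO libraries, and the groups overlap in the other 8 genes.

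Vil1 bundles, caps and severs actin filaments in a calcium-dependent way. It was at 2.2 FPKM in WT 1 and 4.59 in WT 2, against 0.3, 0.04 and 0.11 in KO 1, KO 2 and KO 3. Every KO library lay below both WT libraries, and the lowest WT value was 7.33 times the highest KO value. The group means were 3.40 ± 1.69 FPKM (SD, n = 2) and 0.15 ± 0.135 FPKM (SD, n = 3), a 22.6-fold lower mean in KO and a log2 difference of -1.89. These are the values that chose the gene, and they carry no test. Within WT, the value of WT 2 was 2.09 times that of WT 1. In bulk tumour, fewer cells that express a gene and less of its RNA per cell cannot be told apart, which holds for every gene here.

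The villin and gelsolin family, whose members share the gelsolin repeats, has 5 members besides Vil1 above 1 FPKM. None of these relatives passed the test, none had an unadjusted p under 0.05 by limma, and in each the groups overlapped. Over all genes tested, 0.00987% passed, 1 gene in all, 3.23% had an unadjusted p under 0.05, and 15.1% had groups without overlap. Finding none among 5 genes therefore says little. Vill, encoding villin-like protein, averaged 6.82 FPKM in WT and 6.23 in KO. The same means were 9.41 and 10.4 for Flii, encoding flightless, 3.79 and 4.28 for Svil, encoding supervillin, and 3.11 and 3.25 for Gsn, gelsolin. Capg, a capping protein also found in macrophages, had the widest difference of the 5, with 4.99 ± 0.983 FPKM in WT against 7.89 ± 2.76 in KO (log2 difference 0.53, SE 0.269, limma adjusted p = 0.999). Avil, which shares the 32-base run with Vil1, was listed at 0.03 FPKM in WT 1 and at 0 in the other libraries, and Scin, encoding scinderin, at 0.02 or below.

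Espn (chromosome 4, 152120331 to 152152371, minus strand) encodes espin, a second bundler. It was at 0.7 and 0.24 FPKM in the WT pair, against 1.16, 0.3 and 0.27 in KO 1 to KO 3, under the filter, and the groups overlapped. WT 1 and KO 1 were the high libraries. Pls1, plastin 1 or fimbrin, the third bundler of the microvillus core, was at 3.06 and 4.45 FPKM in the WT pair, against 5.34, 6.41 and 7.25 in KO 1 to KO 3. No KO library reached down to WT, as in 9.78% of all genes tested, and the log2 difference of 0.63 (SE 0.214) did not pass (limma adjusted p = 0.999). Baiap2l1, a membrane-bending protein that recruits actin regulators, was lower in all KO libraries, with 13.4 and 10.2 FPKM in the means (log2 difference -0.35, limma adjusted p = 0.999). Eps8l2, related to the tip protein EPS8, was at 11.2 and 14.0 FPKM, with overlap.

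The ERM linkers differed far more between each other than between genotypes. Rdx (chromosome 9, 52047173 to 52088735, plus strand) measured 30.45 and 39.42 FPKM in the WT pair, against 42.43, 39.16 and 38.69 in KO 1 to KO 3. Only WT 1 stood lower, and the groups overlapped. The log2 difference was 0.20 (SE 0.176, limma adjusted p = 0.999). Ezr (chromosome 17, 6738041 to 6782784, minus strand) measured 4.49 and 7.23 FPKM in the WT pair, against 8.96, 6.63 and 7.31 in KO 1 to KO 3, again with WT 1 the lowest (log2 difference 0.35, SE 0.231, limma adjusted p = 0.999). Msn (chromosome X, 96096042 to 96168552, plus strand) measured 11.22 and 16.63 FPKM in the WT pair, against 15.89, 11.27 and 11.5 in KO 1 to KO 3. WT 2 and KO 1 were its high libraries, and the log2 difference of -0.10 (SE 0.230) did not pass (limma adjusted p = 0.999). Its sign turned to 0.17 without WT 2.

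Of the summed ERM FPKM, Rdx made up 66.0% in WT 1, 62.3% in WT 2, and 63.1%, 68.6% and 67.3% in KO 1, KO 2 and KO 3. Msn made up 24.3% and 26.3% in WT and 23.6%, 19.8% and 20.0% in KO. Ezr was the smallest share in every library, from 9.7% in WT 1 to 13.3% in KO 1. The order Rdx, Msn, Ezr was the same in all 5 libraries.

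**Figure D2:**
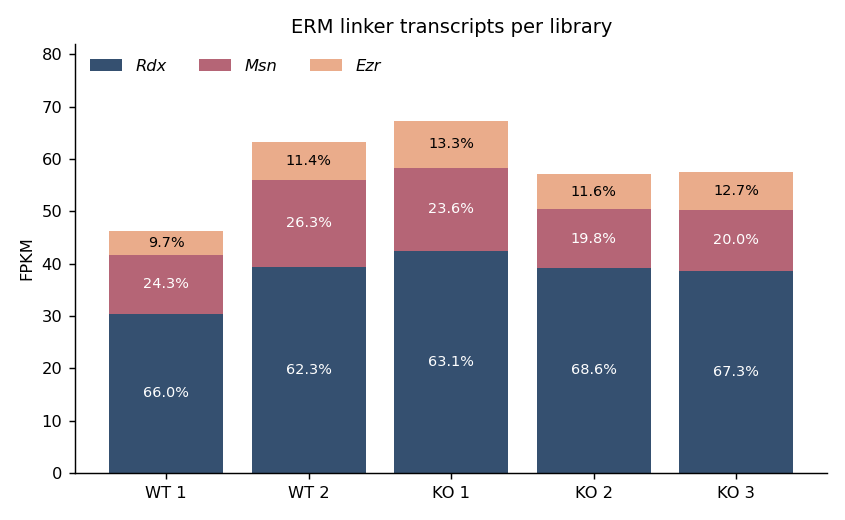
Stacked FPKM of Rdx, Msn and Ezr in each library, with each gene's share of the sum printed in its bar. Rdx takes 62.3% to 68.6% in all libraries, and the sum is lowest in WT 1 (46.2 FPKM).

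Around the ERM proteins, 14 of 15 genes of kinases, partners and the linkers themselves were tested, and none passed. Rock2, a kinase downstream of RhoA that acts on actomyosin and on ERM proteins, had the smallest p (0.0298 unadjusted, limma adjusted p = 0.999). It was at 2.69 and 4.45 FPKM in the WT pair, against 5.92, 5.22 and 5.73 in KO 1 to KO 3, with no overlap. Cd44, a hyaluronan receptor that binds ERM proteins, was at 5.20 and 3.69 FPKM in the means, and Podxl, encoding podocalyxin, at 3.50 and 2.57, both with overlap. The other gene without overlap was Icam1, an adhesion receptor, at 8.29 FPKM in WT and 9.23 in KO. These are 2 of 14 genes, or 14.3%, near the 15.1% of all genes tested that did not overlap.

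Slc9a3r1 (chromosome 11, 115163341 to 115181181, plus strand), also known as NHERF1 or EBP50, links ERM proteins to transporters and was the most abundant of the 10 genes. It was at 93.44 and 89.52 FPKM in the WT pair, against 83.91, 115.62 and 100 in KO 1 to KO 3. The KO libraries lay on both sides of WT (log2 difference 0.11, SE 0.182, limma adjusted p = 0.999). Pdzk1 (chromosome 3, 96829284 to 96870926, plus strand), which holds the HDL receptor SR-BI at the hepatocyte surface, was at 18.3 and 15.12 FPKM in the WT pair, against 18.29, 18.2 and 18.28 in KO 1 to KO 3. WT 2 was its only library away from the others, and the log2 difference of 0.13 (SE 0.170) did not pass (limma adjusted p = 0.999). Scarb1, the gene of SR-BI, was at 110 ± 15.4 FPKM in WT against 105 ± 4.55 in KO. Slc9a3r2, the other NHERF gene, was at 8.83 and 10.4 FPKM, and Pdzd11, a small PDZ protein, at 10.7 and 9.97. In the 7 genes tested of this role, none had an unadjusted p under 0.05 by limma and all groups overlapped. Over all genes tested, 3.23% had such a p and 15.1% did not overlap, so finding none among 7 genes says little.

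Myo1a (chromosome 10, 127705170 to 127720940, plus strand), the myosin that tethers the actin core to the intestinal brush border membrane, was listed at 0.01 FPKM in KO 1 and at 0 in the other 4 libraries. No fold was computed. Other myosins of the microvillus and the subapical web were present, and 10 were tested, of which none passed. Myh9, the heavy chain of non-muscle myosin IIA, was at 35.2 ± 1.70 FPKM in WT against 42.3 ± 4.34 in KO, without overlap (log2 difference 0.25, limma adjusted p = 0.999). Myh14, of non-muscle myosin IIC, was at 1.84 and 2.33 FPKM in the means, also without overlap, and Myh10 at 2.49 and 3.16, with overlap. Groups without overlap were thus seen in 2 of 10 myosins, or 20.0%, beside 15.1% of all genes tested.

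Protocadherins at the tips of microvilli join neighbouring microvilli to each other, through a complex that includes Cdhr2 and Cdhr5, the adaptor Anks4b and the myosin Myo7b. All 5 tested genes of this complex had lower mean log2 values in KO, beside 3912 of all 10132 genes tested. Their median difference was -0.11, and none passed. Of the 5, only Cdhr2 and Cdhr5 had groups without overlap. The differences of the others lay between -0.11 and -0.03. Cdhr2 was at 9.32 and 8.69 FPKM in the WT pair, against 3.34, 3.85 and 6.76 in KO 1 to KO 3. No KO library reached up to WT, as in 5.29% of all genes tested, and the log2 difference of -0.87 (SE 0.261, unadjusted p = 0.00905) did not pass (limma adjusted p = 0.999). Cdhr5 was at 22.77 and 37.49 FPKM in the WT pair, against 16.4, 16.92 and 19.48 in KO 1 to KO 3. Its groups did not overlap either (log2 difference -0.71, SE 0.226, unadjusted p = 0.0129, limma adjusted p = 0.999). Anks4b was at 8.82 and 8.20 FPKM with overlap, and Ush1c, the scaffold harmonin, at 0.05 FPKM or below in every library. The 5 genes kept their sign under each rescaling, while 1 to 2 of them turned positive without WT 1 or without any 1 KO library.

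Anpep (chromosome 7, 79821803 to 79861059, minus strand), aminopeptidase N or CD13, trims peptides at the canalicular and brush border surface. It was at 77.03 and 46.83 FPKM in the WT pair, against 59.74, 73.71 and 62.83 in KO 1 to KO 3. The WT libraries enclosed all KO values (log2 difference 0.12, SE 0.227, limma adjusted p = 0.999), and without WT 2 the sign turned to -0.24. Mme (chromosome 3, 63241537 to 63386030, plus strand), neprilysin or CD10, which also cleaves peptides outside the cell, was at 6.96 and 4.0 FPKM in the WT pair, against 15.08, 13.29 and 8.36 in KO 1 to KO 3. The lowest KO library, KO 3, was still above both of WT. The means were 5.48 ± 2.09 FPKM (SD, n = 2) and 12.2 ± 3.48 FPKM (SD, n = 3), a ratio of 2.23. Its log2 difference of 1.03 (SE 0.286) had the smallest p of the 7 genes tested besides Vil1 (0.00599 unadjusted) and did not pass over all genes (limma adjusted p = 0.999). It stayed between 0.70 and 1.37 in the 12 alternatives.

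Of 15 genes of this role, 7 were tested and 8 were under 1 FPKM. Dpp4, dipeptidyl peptidase 4, was at 6.00 ± 4.22 FPKM in WT against 7.43 ± 2.66 in KO. Enpep, aminopeptidase A, was at 6.27 and 5.02 FPKM in the means, and Ace, angiotensin-converting enzyme, at 3.33 and 2.18. In all 3 the groups overlapped. Sis, the sucrase-isomaltase of the gut, was listed at 0 in every library.

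Counted together, 7 of the 10 genes were tested besides Vil1. None passed, 1 (Mme) had an unadjusted p under 0.05 by limma, higher in KO as in 1.78% of all genes tested, and 6 had a higher and 1 a lower mean log2 value in KO. Their median log2 difference was 0.13, beside 0.05 over all genes tested, 61.4% of which were higher in KO. In the authors' deposited table none of the 9 genes other than Vil1 had a false discovery rate under 0.05, and the lowest belonged to Mme (0.723). Of all genes the authors listed, 0.162% were under 0.05.

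The wider list of microvillus genes holds 74 genes in the roles above, of which 53 besides Vil1 were tested and 20 were below the filter. None of the 53 passed by limma, and 5 had an unadjusted p under 0.05, Pls1, Rock2 and Mme with higher values in KO and Cdhr2 and Cdhr5 with lower. That is 9.43% of the list, beside 3.23% of all genes tested. Groups did not overlap in 9 genes, or 17.0%, beside 15.1% of all genes tested. Of the list, 30 were higher and 23 lower, with a median log2 difference of 0.02 beside 0.05 for all genes. With median-ratio rescaling or quantile normalization the split was 24 higher and 29 lower, and 50.6% and 52.4% of all genes were then higher in KO. In the authors' deposited table the smallest false discovery rate of the list besides Vil1 was 0.166, for Cdhr5.

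**Figure D3:**
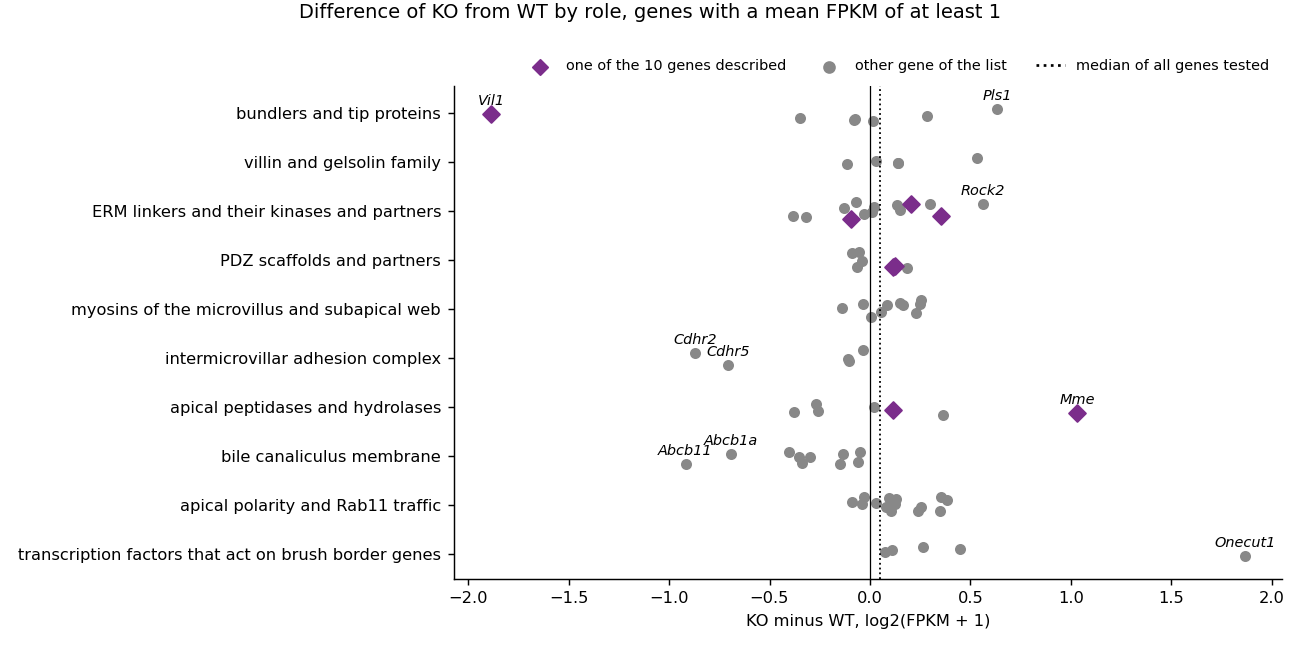
Difference of KO from WT on the log2(FPKM + 1) scale for each tested gene, by role; Vil1 is drawn in the first row only, diamonds are the genes described, and the dotted line is the median of all genes tested (0.05). Vil1 (-1.89) stands at the far left of the microvillus rows and Mme (1.03) at the far right.

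The bile canaliculus is lined with hepatocyte microvilli, so genes of its membrane proteins were set beside the microvillus genes. All 10 tested genes had a lower mean log2 value in KO, beside 3912 of all 10132 genes tested. Their median was -0.32, beside 0.05 over all genes, and none passed. Of the 10, 2 had an unadjusted p under 0.05 by limma, beside 1.45% of all genes tested that were lower at that threshold. Abcb11, the bile salt export pump, was at 38.9 ± 3.25 FPKM in WT against 20.5 ± 5.43 in KO (unadjusted p = 0.00293, limma adjusted p = 0.893). Abcb1a, a multidrug transporter, was at 6.20 ± 0.198 FPKM in WT against 3.47 ± 0.442 in KO (unadjusted p = 0.00498, limma adjusted p = 0.999). Ceacam1, an adhesion molecule of the canaliculus, was at 53.3 and 43.1 FPKM. These 3 genes lay lower in all KO libraries with no overlap, as 5.29% of all genes tested did, and the groups overlapped in the other 7. All 10 stayed lower under each rescaling, but 3 turned higher without WT 2 and 2 without KO 2.

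Polarity and apical traffic genes, which place the apical membrane, had a higher mean log2 value in KO in 11 of 14 cases. That is 78.6%, beside 61.4% of all genes tested. The median difference of the 14 was 0.12, beside 0.05 for all genes, and none passed. Without WT 1 only 6 of the 14 were higher, or 42.9%, beside 39.7% of all genes. With median-ratio rescaling 10 were higher, or 71.4%, beside 50.6%. Tjp1, encoding the tight junction protein ZO-1, was at 10.3 and 13.5 FPKM, Cldn1, claudin 1, at 32.1 and 38.8, and Cgn, cingulin, at 4.69 and 6.28. Among transcription factors that act on brush border genes, Cdx1 and Cdx2, regulators of Vil1 in the intestine, were listed at 0 in all 5 libraries. Gata4 was at 3.33 ± 0.728 FPKM in WT against 4.89 ± 0.558 in KO (limma adjusted p = 0.999). Onecut1, the 1 gene of all tested that passed (limma adjusted p = 0.047), was at 2.2 and 2.39 FPKM in the WT pair, against 11.57, 9.57 and 12.04 in KO 1 to KO 3, opposite in direction to Vil1. That call was kept in 3 of the 12 alternatives and lost without WT 2 (limma adjusted p = 0.0974) or any 1 KO library (0.224, 0.0994 and 0.516 without KO 1, KO 2 and KO 3).

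The genes around Vil1 on chromosome 1 were measured as well. Within 200 kb of it lie 15 other protein-coding genes, of which 9 were tested. None passed, none had an unadjusted p under 0.05 by limma, and none of the 9 had groups that did not overlap. The shares of all genes tested were 0.00987%, 3.23% and 15.1%, so finding none among 9 genes says little. Their log2 differences ran from -0.24 (Bcs1l, a mitochondrial assembly factor) to 0.01 (Ctdsp1, a phosphatase). Ctdsp1, whose start lies 17.9 kb upstream, was at 29.53 and 30.55 FPKM in the WT pair, against 28.09, 32.24 and 30.49 in KO 1 to KO 3. Of the 6 genes under the filter, Stk36, a kinase, was higher in every KO library, at 0.22 FPKM or below throughout. Downstream, Usp37, a deubiquitinase read from the other strand, overlaps the Vil1 gene by 49 bases and was at 0.7 and 1.01 FPKM in the WT pair, against 0.99, 0.86 and 0.77 in KO 1 to KO 3. The strand setting of the counting is not known from the labels, so reads from that overlap cannot be assigned.

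**Figure D4:**
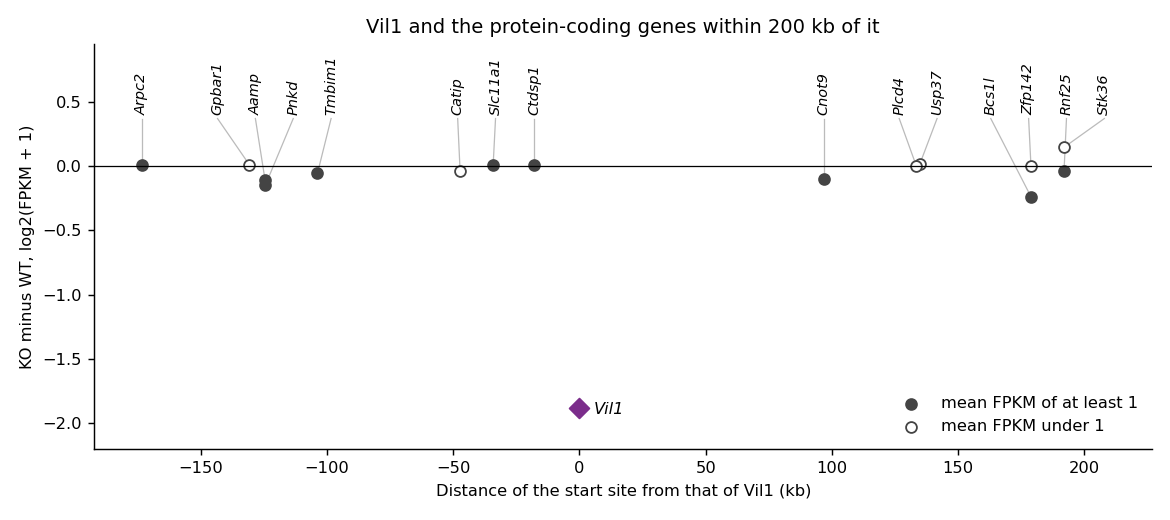
Difference of KO from WT on the log2(FPKM + 1) scale against the distance of each gene's start site from that of Vil1 in kb. Filled points had a mean of at least 1 FPKM and lie between -0.24 and 0.01, open points were lower, and Vil1 lies at -1.89.

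The genes nearest to the profile of Vil1 were found by the root mean square distance between log2(FPKM + 1) values centred on each gene's mean, over the 5 libraries. Only genes with a mean of at least 1 FPKM and no predicted or clone name were searched. The 5 nearest were Car14, a membrane-bound carbonic anhydrase (distance 0.270), Crybb3, a crystallin (0.331), Sult2a2, a hydroxysteroid sulfotransferase (0.358), Cxcl9, an interferon-induced chemokine (0.399), and Bcl6, a transcriptional repressor (0.408). The median distance over the genes searched was 0.983. Vil1 was picked for being low in KO, so these neighbours in profile are a description. Car14 was at 7.98 and 9.34 FPKM in the WT pair, against 2.29, 0.9 and 2.0 in KO 1 to KO 3. Among Ezr, Rdx, Msn, Slc9a3r1, Pdzk1, Anpep and Mme, the distance to Vil1 ran from 0.883 for Msn to 1.52 for Mme. The distance of a gene that hardly varies is set by the profile of Vil1 alone. Values near the median therefore do not measure likeness to Vil1.

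**Figure D5:**
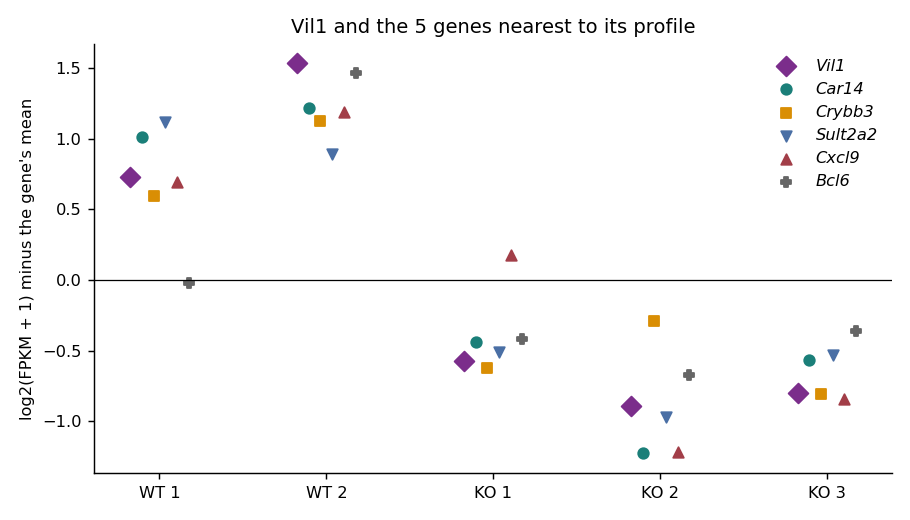
Centred log2(FPKM + 1) of Vil1 and the 5 genes nearest to it in each library (points; 0 is each gene's own mean). All but Bcl6 lie above 0 in both WT libraries, where Bcl6 is near 0 in WT 1, and all but Cxcl9 in KO 1 lie below 0 in the KO libraries.

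Markers of cell types that carry microvilli or ERM proteins were measured beside these genes. Of 11 intestinal epithelial markers, Cdx1, Cdx2, Muc2 and Sis were at 0 in all libraries and 8 never reached 1 FPKM, and the summed level was 56.9 to 59.4 FPKM in WT and 47.4 to 66.3 in KO, carried by Fabp2, Cdh17 and Krt20. Cdh17, an intestinal and liver cadherin, was at 16.89 and 31.08 FPKM in the WT pair, against 14.71, 12.74 and 16.01 in KO 1 to KO 3 (unadjusted p = 0.0344, limma adjusted p = 0.999). All 9 markers of the kidney proximal tubule stayed under 1 FPKM, with 5 at 0. Cholangiocyte markers summed to 184 to 437 FPKM in WT and 173 to 367 in KO, mostly from Spp1. Of 10, 6 were tested and none had an unadjusted p under 0.05 by limma, beside 3.23% of all genes tested. Krt19, the defining keratin of bile ducts, was at 0.61 and 1.56 FPKM in the WT pair, against 1.49, 1.81 and 1.05 in KO 1 to KO 3, with overlap between the groups.

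Beside Msn, leukocyte markers summed to 111 and 150 FPKM in the WT pair, against 130, 69.8 and 127 in KO 1, KO 2 and KO 3. All 7 tested had a lower mean log2 value in KO, beside 3912 of all 10132 genes tested, and none passed. Coro1a and Lcp1, 2 of the 7, had an unadjusted p under 0.05, beside 1.45% of all genes tested that were lower at that threshold. Without WT 2 or without KO 2, 3 of the 7 were higher. Endothelial markers summed to 72.9 and 63.5 FPKM in the WT pair, against 109, 68.4 and 80.4 in KO. Of 8, 7 were higher in KO, beside 61.4% of all genes tested, and 6 with median-ratio rescaling or quantile normalization. Lyve1 alone had an unadjusted p under 0.05 (0.0421 by limma, no overlap), and none passed. The part of these cells in the values of Msn was not tested. Stellate cell and fibroblast markers summed to 81.6 and 102 FPKM in the WT pair, against 136, 91.0 and 106 in KO. Of 7, 6 were higher in KO, and 5 with median-ratio rescaling or quantile normalization. Lrat alone had an unadjusted p under 0.05 (0.048 by limma, no overlap), and none passed. Pancreas acinar markers, of which Prss2 and Pnlip were at 0, came to 18.8 to 26.9 FPKM in WT and 14.5 to 17.8 in KO, almost all from Cela1. The 7 hepatocyte markers analysed, Alb among them, summed to 125074 and 97190 FPKM in the WT pair, and lay between 106516 and 107963 in KO, mostly from Alb. Of the 7, 6 had a lower mean log2 value in KO, with a median difference of -0.15, beside 0.05 over all genes tested, and none passed. Without WT 2 only 4 of the 7 were lower, and 5 without WT 1 or without KO 2. Ttr, transthyretin, was the 1 marker at an unadjusted p under 0.05, with 3586 FPKM in WT and 2448 in KO and no overlap. Their part in the values of the canaliculus genes was not tested.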

How the data were processed

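RNA-seq of 2 WT and 3 KO liver tumours was deposited as 1 table of gene FPKM, given by the authors to 2 decimals, per the file headers. It further gives the authors' log2 fold change, p-value and false discovery rate for each gene, and no source used here names the tool behind them. The tools in the submitters' processing notes are HISAT2, StringTie, DESeq2, limma and bcl2fastq 2.0, with the build mm10 and without roles. FPKM keep no library totals and low values showed no step of 1 read, so no count model or counting interval was used.

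Groups came from the sample titles. The 10132 genes averaging 1 FPKM or more were fitted as log2(FPKM + 1) on genotype by limma 3.58.1 in R 4.3.3 (trended empirical Bayes, 3 residual degrees of freedom, two-sided tests), with Benjamini-Hochberg adjustment over all of them; the code was tested on simulated data. The 10 genes and all lists were chosen with earlier results of these data known. Named besides the 10 were up to 3 genes per role by smallest unadjusted p, the neighbours of Vil1 within 200 kb and the 5 nearest profiles; Icam1, Vill, Gsn, Avil, Scin, Ush1c, Sis, Cdx1, Cdx2 and single markers were named after their values were seen. A gene that this rule would name, and a motif, are not reported here. Coordinates are 1-based, from GENCODE vM21 (GRCm38), which holds 22253 of the identifiers. Promoters came from RefSeq, where all 10 genes matched. Coding sequences, the longest per gene, were aligned with Biopython 1.88, and figures drawn with matplotlib 3.10.9. Alternatives were pseudocounts of 0.1 and 5, no filter, quantile normalization, scaling to equal sums or by median ratios, the replicate block and leaving out each library.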

Additional observations from a re-analysis of the deposited data

How the results depend on the processing

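The log2 difference of Vil1 stayed negative under all 12 alternatives. It was -3.85 with a pseudocount of 0.1 and -0.69 with one of 5, as the scale itself sets, and ran from -2.29 to -1.48 when each library was left out; without WT 2 it fell below the expression filter and was computed as a difference only. Of the 7 other genes tested, the signs of Msn (0.17), Pdzk1 (-0.0032) and Anpep (-0.24) turned without WT 2, and no other sign turned; with a library left out Msn ran from -0.36 to 0.17, Pdzk1 from -0.0032 to 0.26 and Anpep from -0.24 to 0.47. The number of all genes past the threshold, 1 in the main analysis, was 0 with a pseudocount of 5, no expression filter, quantile normalization, or scaling to equal sums or by median ratios, and 0 to 17 when a library was left out, the 17 without WT 1. The median of the 53 microvillus genes, 0.02, ran from -0.0557 to 0.14 with a library left out, 0.14 being the value without WT 2, where the median of all genes was 0.16. The cause of these shifts was not tested. With the replicate number as a block, 62 genes passed, 1 of them a microvillus gene (Mme, log2 difference 1.26, adjusted p = 0.0232); no microvillus gene passed in the other 11 alternatives, and of the canaliculus genes named Abcb11 passed with the block alone (adjusted p = 0.027). The labels do not say whether the numbers pair the samples. Deviations of same-numbered libraries correlated at 0.088 and -0.241. These values cannot decide it, since with 2 WT libraries the WT deviations are mirror images of each other. With the block, 1 residual degree of freedom remains. KO 3 has no partner, so the block leaves it out of the difference.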
